A study of Mus musculus with 6 samples.

Results

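The collagens and the stromal matrix proteins that accompany them were examined in RNA of macrophages sorted from the mammary glands of a mouse model of breast cancer. The group was made of every protein-coding gene named as a collagen chain (44 genes) and 18 further matrix genes chosen by name, which gave 62 of the 43432 genes in the deposited table. All mice were female, of the FVB/N strain and of the MMTV-PyMT genotype, a transgene of the polyoma middle T oncogene expressed in mammary epithelium from a mammary tumour virus promoter. The tested age was 11 weeks and the age set against it was 8 weeks, with 3 libraries each, and both ages carried the transgene. The macrophages were sorted from collagenase-digested glands as cells positive for CD45, MHC class II and CD14, so the cell suspension also held epithelial, stromal and endothelial cells before the sort. The labels number the libraries of an age without stating whether they came from separate animals, so the p-values reflect the spread among these libraries, and part of it may be technical.

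Collagens are secreted as triple helices of 3 chains that are folded in the endoplasmic reticulum, trimmed outside the cell, assembled into fibrils, networks or filaments and crosslinked by lysyl oxidases. In the mammary gland fibroblasts are the chief source of fibrillar collagen, while basement membrane collagens come from epithelial, endothelial and stromal cells. Macrophages are known mainly for taking up and degrading matrix, and also make some matrix proteins themselves.

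Depth ran from 38784434 to 75004875 reads per library, and mitochondrial genes held 38.5% to 56.7% of the normalized counts. All levels below are normalized counts, that is, read counts scaled by the size factor of the library, in the order of replicates 1, 2 and 3. A count of 3 reads corresponded to 2.56 to 4.16 normalized counts, depending on the library, which was used as the floor for genes with no reads at 1 age. The macrophage identity of the sort showed in 13 marker genes, among them Lyz2 and Csf1r, which summed to 827748, 913160 and 809759 normalized counts at 11 weeks, against 780019, 996122 and 801826 at 8 weeks. These sums overlapped between the ages and were mostly Lyz2. Single markers differed. Csf1r (log2 fold change -0.27, unadjusted p 0.0433 in limma) and Ptprc, which encodes the CD45 of the gate (-0.42, 0.00987), were lower in every 11-week library. Cd14, also of the gate (0.63, 0.000778), Fcgr1 (0.74, 0.0153) and C1qb (0.25, 0.0652) were higher in each. The limma adjusted p was 0.609 for Csf1r, 0.434 for Ptprc, 0.198 for Cd14, 0.481 for Fcgr1 and 0.653 for C1qb.

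The matrix genes were a small part of this RNA. Together they made 0.0477%, 0.0444% and 0.0763% of the non-mitochondrial normalized counts at 11 weeks, against 0.0273%, 0.0305% and 0.0302% at 8 weeks, and every 11-week library lay above every 8-week library. In a bulk sample, more cells of a matrix-producing type and more matrix RNA per cell cannot be told apart. Of the 62 genes, 60 passed the filter of a mean of at least 1 normalized count at either age, and Col6a4 and Col13a1 did not. Reads were present in all 6 libraries for 35 of the tested genes, 7 passed the filter through the 11-week libraries only and 3 through the 8-week libraries only. The sources used here do not state whether counting used strand, so for the 19 genes that share exonic bases with another gene the reads cannot be told apart there.

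As a group the matrix genes leaned to higher levels at 11 weeks, but 0 of 60 passed the adjusted threshold of 0.05 in limma on log2(normalized count + 1), where 0.0507% of all 21675 genes tested did (0.0369% higher and 0.0138% lower). At an unadjusted p under 0.05, 23 matrix genes (38.3%) were higher at 11 weeks, against 4.76% of all genes tested, and 0 were lower, against 3.27%. The log2 fold change was positive for 51 of 60 (85%), against 52.8% of all genes. In 21 of them (35.0%) all 3 libraries at 11 weeks lay above all 3 at 8 weeks, against 6.81% of all genes, and in 0 did all 3 lie below, against 5.12%. Genes that passed the filter through 11 weeks only had to be higher there. Among the 50 matrix genes at or above the filter at both ages, 44 had a positive log2 fold change (51.2% of all such genes), 21 were higher at an unadjusted p under 0.05 (4.58% of all such genes) and 18 had no overlap and were higher (6.82% of all such genes). The median log2 fold change was 1.5 over the matrix genes and 0.05 over all genes tested.

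The other tools applied to the recovered reads gave different counts of calls at an adjusted p under 0.05. The quasi-likelihood test of edgeR called 0 of 60 matrix genes, with 0.06% of all genes called higher and 0.00461% lower, and 23 had an unadjusted p under 0.05 and a higher level, against 4.9% of all genes. The voom method of limma called 1, Loxl2, with 0.0923% of all genes called higher and 0.0277% lower, and again 23 were higher at an unadjusted p under 0.05, against 4.97% of all genes. DESeq2 called 12 of the 50 matrix genes to which it gave an adjusted p, all higher at 11 weeks, with 1.72% of all genes called higher and 1.01% lower, and these were Col1a1, Sparc, Col6a2, Col9a1, Fbn1, Col9a3, Col11a1, Col4a6, Col12a1, Loxl2, Fbln2 and Col8a1. In the authors' deposited table, 6 of the 46 matrix genes with an adjusted p were called higher and 0 lower, with 1.13% of all genes called higher and 0.78% lower. In the authors' deposited table these were Col9a1 (log2 fold change 1.79, adjusted p 0.003), Fbn1 (1.63, 0.007), Loxl2 (1.51, 0.014), Sparc (1.196, 0.034), Col12a1 (1.41, 0.038) and Col1a1 (1.22, 0.038). All 6 deposited fold changes were smaller than those of the limma fit, which were 6.15 for Loxl2 and 3.58 for Col9a1. The deposited values are thus not to be read on the scale of the fold changes given below.

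Genes with more reads leaned the same way. In a split chosen after the values were seen, 27 matrix genes had a mean of at least 100 normalized counts over the 6 libraries, and 16 of them had an unadjusted p under 0.05 and a higher level at 11 weeks, against 5.13% of all genes at that level, while 0 were lower, against 5.16%. A positive log2 fold change was found in 25 of the 27, against 48.3% of such genes, and 12 had no overlap and were higher at 11 weeks, against 7.66%. Their median log2 fold change was 1.52, against -0.02 for all genes of that level. The highest value of a gene was found in an 11-week library for 47 of 60 genes, and in replicate 3 of that age for 27. Without that library, 16 matrix genes had an unadjusted p under 0.05 and a higher level, and the median log2 fold change was 1.30.

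**Figure D1:**
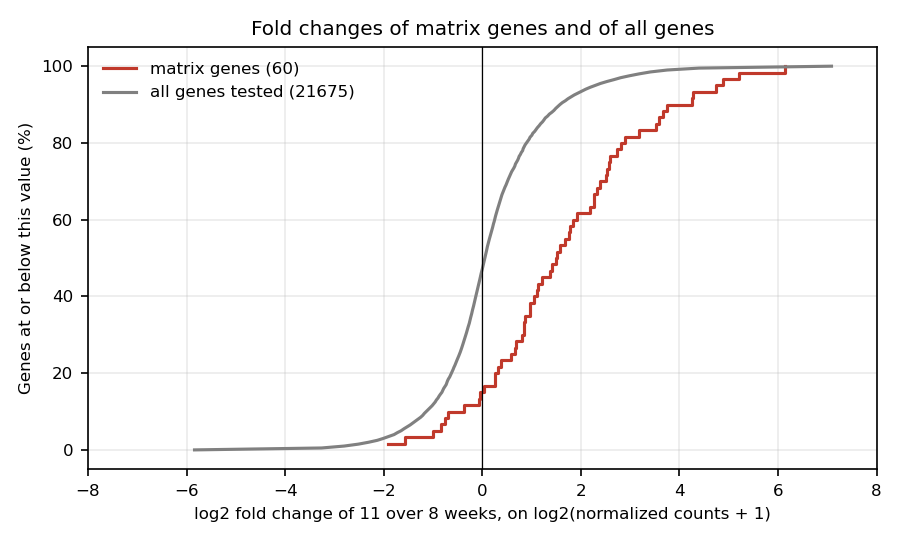
The share of genes (vertical axis, %) at or below each log2 fold change of 11 over 8 weeks (horizontal axis, on log2(normalized counts + 1)), as a stepped line for the 60 tested matrix genes and a smooth line for all 21675 genes tested. The line of the matrix genes lies to the right of the line of all genes over most of its range, with medians of 1.5 and 0.05.

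The fibrillar collagens form the banded fibres of connective tissue, and 10 of the 11 chains had a positive log2 fold change, 5 of them with an unadjusted p under 0.05. Over all genes tested, the shares to set beside the counts of this and each later group are 52.8% positive, 4.76% higher and 3.27% lower at an unadjusted p under 0.05. Their summed level was 2410.0, 1935.4 and 3297.3 normalized counts at 11 weeks, against 1013.8, 1008.6 and 734.6 at 8 weeks, a ratio of means of 2.77 with no overlap between the ages. Col1a1, the major chain of type I collagen, had 848.7, 345.8 and 648.0 normalized counts at 11 weeks, against 248.8, 231.4 and 125.6 at 8 weeks. All 11-week values of Col1a1 lay above the 8-week values (log2 fold change 1.57 ± 0.50 SE, limma adjusted p = 0.399).

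Col3a1, the chain of type III collagen that forms mixed fibrils with type I, had 519.5, 253.0 and 1007.0 normalized counts at 11 weeks, against 275.5, 381.0 and 38.4 at 8 weeks. The ages overlapped for Col3a1, since replicate 2 of 11 weeks lay below 2 of the 8-week libraries. Col27a1, a fibrillar chain best known from cartilage, had 223.4, 640.1 and 716.0 normalized counts at 11 weeks, against 41.0, 191.2 and 327.1 at 8 weeks, and again 1 library of 11 weeks lay within the 8-week range. Col11a1, a minor chain that takes part in fibril nucleation, had 66.2, 66.5 and 143.2 normalized counts at 11 weeks, against 0.9, 12.5 and 0 at 8 weeks, with no overlap (log2 fold change 4.88 ± 1.37 SE, limma adjusted p = 0.31).

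Col1a2, the partner chain of Col1a1, also separated the ages, with a log2 fold change of 1.52 ± 0.53 SE. The 3 chains of type V collagen, which regulates fibril diameter, overlapped between the ages, and Col5a2 had 44.1, 52.4 and 97.0 normalized counts at 11 weeks, against 85.6, 51.3 and 56.4 at 8 weeks. Col24a1 had 173.8 normalized counts in replicate 1 of 11 weeks and at most 1.8 in each other library, so its fold change rested on 1 library. Col2a1, the cartilage collagen, had no reads in any 8-week library and was at least 3.23-fold higher at 11 weeks against a floor of 3 reads per library, with reads in 2 of the 3 libraries.

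**Figure D2:**
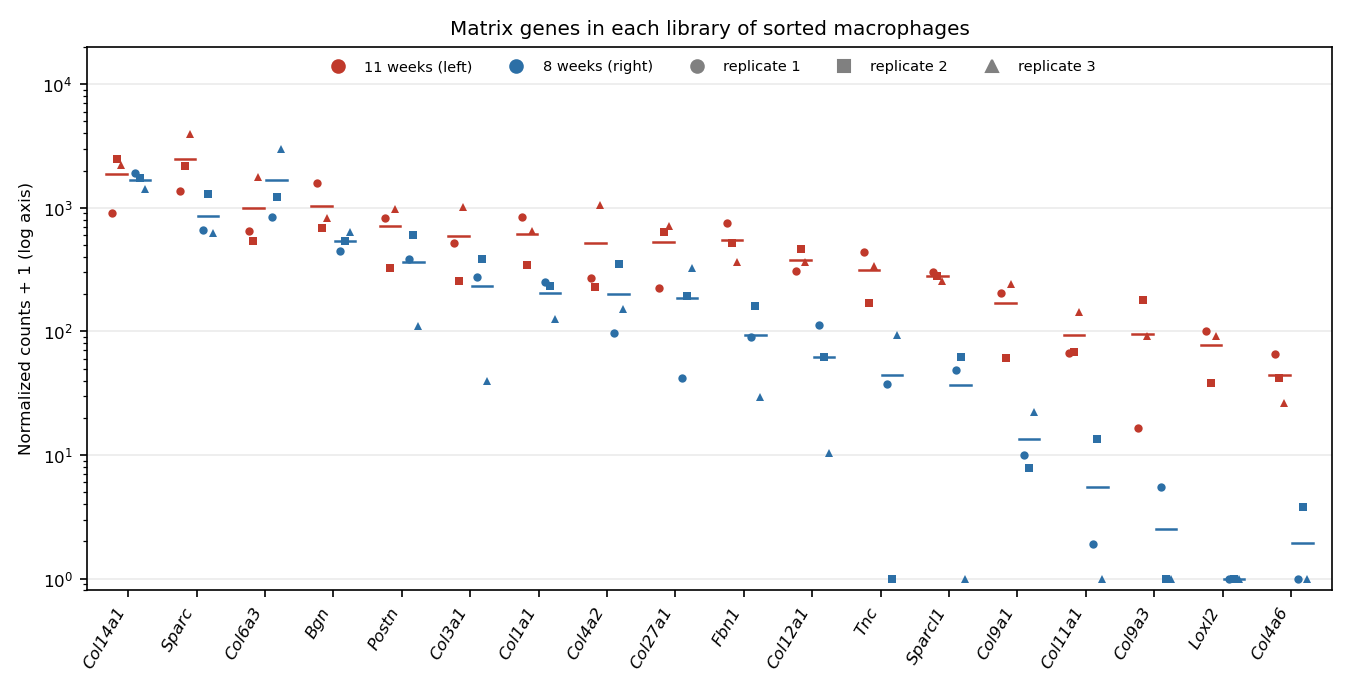
Normalized counts + 1 (vertical log axis) of 18 matrix genes in each library, with 11-week libraries on the left of each gene and 8-week libraries on the right, marker shapes for replicates and a line at the mean. The genes are the 10 with the smallest p and the 10 with the highest mean level. Loxl2 sits at 0 counts in all 8-week libraries, while Col14a1 and Col6a3 overlap between the ages.

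The basement membrane collagens build the sheet beneath epithelium and around vessels, and 7 of 8 had a positive log2 fold change, 2 of them with an unadjusted p under 0.05. Their sums were 964.6, 864.9 and 2084.6 normalized counts at 11 weeks, against 464.6, 640.1 and 374.9 at 8 weeks, without overlap. Col4a2, a chain of the common type IV network, had 269.4, 228.8 and 1046.8 normalized counts at 11 weeks, against 95.4, 351.9 and 151.2 at 8 weeks. Its partner chain Col4a1 had 103.9, 197.6 and 411.5 normalized counts at 11 weeks, against 103.4, 130.2 and 103.3 at 8 weeks. For both chains the highest value was in replicate 3 of 11 weeks, and the ages overlapped.

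Col15a1, a basement membrane collagen that bears glycosaminoglycan chains, had 154.5, 351.8 and 406.0 normalized counts at 11 weeks, against 186.4, 108.1 and 56.4 at 8 weeks, with overlap. Col4a6, a type IV chain of epithelial and smooth muscle basement membranes, had 64.4, 41.3 and 25.4 normalized counts at 11 weeks, against 0, 2.8 and 0 at 8 weeks, so its 8-week values were at or under the floor of 3 reads. The log2 fold change of Col4a6 was 4.74 ± 1.41 SE (limma adjusted p = 0.319).

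The type VI, VII, XXVI and XXVIII chains were grouped as beaded filament and anchoring collagens. Col6a1 and Col6a2, the short chains of type VI collagen, were higher at 11 weeks in every library, while Col6a3, the long chain that joins them in the same monomer, overlapped between the ages. None of the 3 passed the adjusted threshold in limma. A promoter window is printed for each of these 3 chains, a choice made after the values were seen. The chains are partners in 1 protein, and their level ratios differed between the libraries of the ages. Each window runs from 250 bases before to 50 bases after a RefSeq start of the gene on GRCm38.p6. It is written 5′ to 3′ on the gene's own strand, which is the minus strand for all 3. The window of Col6a1 lies at chr10:76725995-76726294, that of Col6a2 at chr10:76623355-76623654 and that of Col6a3 at chr1:90843922-90844221. Col6a2 has a second window from another start, at chr10:76623581-76623880, which held 1 GC box and is not printed. Capitals mark matches to the 4 motifs searched.
Col6a1: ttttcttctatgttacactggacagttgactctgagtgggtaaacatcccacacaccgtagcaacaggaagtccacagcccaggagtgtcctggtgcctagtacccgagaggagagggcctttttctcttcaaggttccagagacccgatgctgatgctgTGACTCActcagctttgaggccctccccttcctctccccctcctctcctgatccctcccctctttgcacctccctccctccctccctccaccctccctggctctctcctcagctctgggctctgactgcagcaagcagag
Col6a2: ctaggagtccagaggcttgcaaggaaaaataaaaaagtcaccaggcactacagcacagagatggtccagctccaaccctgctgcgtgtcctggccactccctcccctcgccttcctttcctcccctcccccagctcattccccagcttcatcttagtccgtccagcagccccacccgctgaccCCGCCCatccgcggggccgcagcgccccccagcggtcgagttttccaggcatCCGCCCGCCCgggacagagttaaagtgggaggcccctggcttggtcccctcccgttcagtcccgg
Col6a3: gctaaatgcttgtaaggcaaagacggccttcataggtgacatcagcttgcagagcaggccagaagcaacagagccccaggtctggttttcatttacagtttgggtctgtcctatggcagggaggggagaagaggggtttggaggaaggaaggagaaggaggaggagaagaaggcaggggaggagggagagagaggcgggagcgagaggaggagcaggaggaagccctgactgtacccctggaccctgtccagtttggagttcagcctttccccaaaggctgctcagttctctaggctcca
The Col6a1 window held 1 match to the AP-1 motif TGANTCA, starting 90 bases before the RefSeq start of that window, which is not the gene start of the deposited table. In the printed Col6a2 window the GC box GGGCGG was found 3 times on the opposite strand, and the last 2 of these overlap. They begin 67, 15 and 11 bases before the start of that window's transcript, and these distances do not hold for the other start. The Col6a3 window held no match to the 4 motifs, which says only that these letters are not in it.

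Col6a1 had 402.7, 107.9 and 193.1 normalized counts at 11 weeks, against 34.8, 18.0 and 85.4 at 8 weeks. Col6a2 had 220.7, 63.5 and 264.7 normalized counts at 11 weeks, against 29.4, 49.9 and 21.4 at 8 weeks. Both chains separated the ages, with fitted log2 differences of 2.39 ± 0.85 SE (limma adjusted p = 0.457) for Col6a1 and 2.26 ± 0.88 SE (limma adjusted p = 0.517) for Col6a2. Col6a3 had 652.8, 537.3 and 1779.2 normalized counts at 11 weeks, against 840.8, 1212.2 and 2966.3 at 8 weeks, with overlap, at a fitted log2 difference of -0.76 ± 0.48 SE (limma adjusted p = 0.74), which was -0.24 without replicate 3 of 8 weeks and -1.29 without replicate 3 of 11 weeks.

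Per kilobase of exonic length, the ratio of Col6a3 to Col6a1 was 0.594, 1.82 and 3.37 at 11 weeks, against 8.85, 24.7 and 12.7 at 8 weeks. The ratio of Col6a3 to Col6a2 was 2.06, 5.89 and 4.68 at 11 weeks, against 19.9, 16.9 and 96.5 at 8 weeks. Both ratios were lower at 11 weeks in every library, with differences of -3.19 and -3.05 on the log2 scale, and each had an exact two-sided permutation p of 0.1, the smallest that 3 against 3 libraries allow. A total of 6 ratios were computed, chosen after the values were seen, and the p adjusted over them was 0.3 for both. The ratios Col1a1 to Col1a2, Col4a1 to Col4a2, Col6a1 to Col6a2 and Col3a1 to Col1a1 overlapped between the ages, with differences between -0.36 and 0.14 on the log2 scale.

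**Figure D3:**
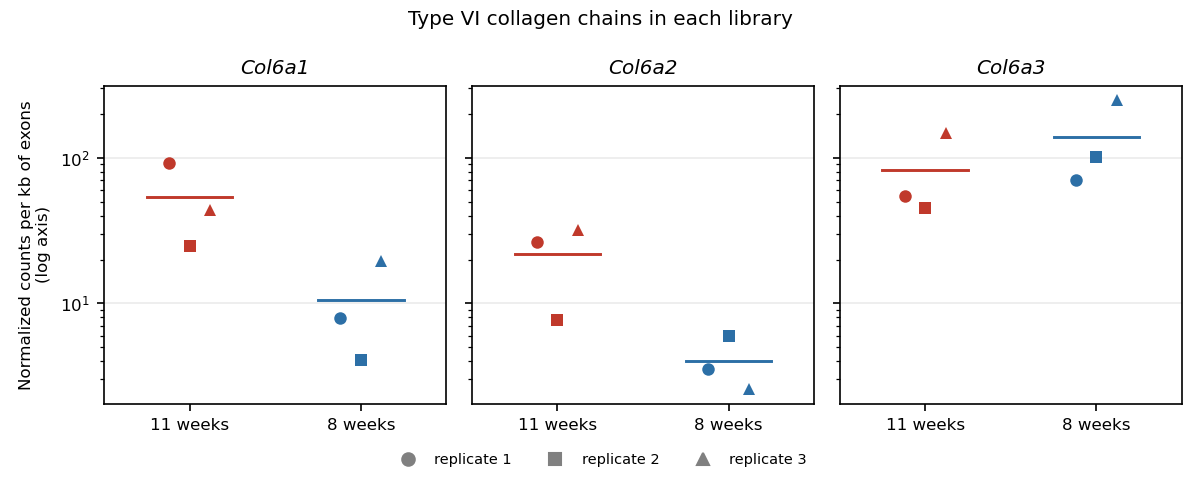
Normalized counts per kilobase of exons (vertical log axis) of Col6a1, Col6a2 and Col6a3 in each library, 11 weeks on the left and 8 weeks on the right, with marker shapes for replicates and a line at the mean. Col6a1 and Col6a2 lie higher at 11 weeks in every library, while the values of Col6a3 overlap between the ages.

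The remaining chains of this group were sparse. Col7a1, the anchoring fibril collagen, had 35.9, 5.0 and 53.5 normalized counts at 11 weeks, against 18.7, 2.8 and 94.0 at 8 weeks, with a log2 fold change of 0.25 in limma and -0.29 in DESeq2. Col6a5 had reads in 1 library, at 11 weeks, and its mean was at least 4.18-fold higher against the floor. Col28a1 had no 11-week reads, against 0.9, 27.7 and 0 normalized counts at 8 weeks. Its mean was at least 3.36-fold lower, which rested on 1 library. Because Col6a3 dominates the sum of the group, the ratio of mean sums was 0.798, with overlap between the ages.

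Of the network collagens, Col8a1, a short chain made by vascular and other stromal cells, had 569.2, 250 and 77.9 normalized counts at 11 weeks, against 62.4, 26.3 and 1.7 at 8 weeks, without overlap (log2 fold change 3.75 ± 1.17 SE, and 2.43 without replicate 3 of 8 weeks, limma adjusted p = 0.359). Col10a1, a collagen of growth plate cartilage, had 57.0, 52.4 and 4.5 normalized counts at 11 weeks, against 20.5, 1.4 and 60.6 at 8 weeks. Col8a2, the partner of Col8a1, had 0, 0 and 38.1 normalized counts at 11 weeks, against 0, 0 and 8.5 at 8 weeks. Col10a1 and Col8a2 overlapped between the ages.

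The fibril-associated collagens sit on the surface of fibrils, and 7 of 9 had a positive log2 fold change, 3 with an unadjusted p under 0.05. Col14a1, the most abundant of them, had 912.1, 2467.8 and 2228.7 normalized counts at 11 weeks, against 1899.2, 1726.2 and 1411.8 at 8 weeks. Its log2 fold change was 0.04 ± 0.35 SE and turned to -0.05 when libraries were scaled to their totals. Col12a1, a close relative of Col14a1, had 308.9, 465.7 and 365.3 normalized counts at 11 weeks, against 112.3, 61.0 and 9.4 at 8 weeks, with no overlap (log2 fold change 3.17 ± 0.83 SE, limma adjusted p = 0.26). Whether Col12a1 and Col14a1 differ in their change was not tested.

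A pair of the type IX chains, which coat type II fibrils in cartilage, were among the 10 matrix genes with the smallest p. Col9a1 had 202.3, 59.5 and 240.2 normalized counts at 11 weeks, against 8.9, 6.9 and 21.4 at 8 weeks, at a fitted log2 difference of 3.58 ± 1.04 SE (limma adjusted p = 0.31). Col9a3 had 15.6, 177.4 and 90.6 normalized counts at 11 weeks, against 4.5, 0 and 0 at 8 weeks, at a fitted log2 difference of 5.20 ± 1.48 SE (limma adjusted p = 0.31). Both separated the ages, and Col9a3 shares 234 exonic bases with Tcfl5 on the opposite strand, which had at most 2.8 normalized counts in any library. Col16a1, a minor fibril-associated chain, had 169.2, 52.4 and 104.2 normalized counts at 11 weeks, against 13.4, 31.9 and 271.6 at 8 weeks, and its highest value was in an 8-week library.

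The transmembrane collagens stay anchored in the cell membrane. Col17a1, the hemidesmosome collagen of basal epithelium, had 63.4, 85.7 and 134.1 normalized counts at 11 weeks, against 33.0, 1.4 and 5.1 at 8 weeks, without overlap. Col23a1 had 0, 10.1 and 80.7 normalized counts at 11 weeks, against 99.9, 12.5 and 16.2 at 8 weeks. Col25a1, a chain known from neurons, had 13.8, 0 and 18.1 normalized counts at 11 weeks, against 26.7, 0 and 4.3 at 8 weeks. Neither Col23a1 nor Col25a1 separated the ages, and Col13a1 had no reads in any library.

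Of the 5 proteins that fold, process or crosslink collagen, 4 had a positive log2 fold change. Loxl2, a lysyl oxidase that crosslinks collagen, had the smallest p of all matrix genes, with 100.2, 37.3 and 91.5 normalized counts at 11 weeks and no read in any of the 8-week libraries. It was at least 24.4-fold higher at 11 weeks, against a floor of 3 reads per library (limma adjusted p = 0.157, and 5.6e-05 in DESeq2, 0.0221 in voom and 0.194 in edgeR). Loxl2 shares 301 exonic bases with the antisense gene Gm27177, which had no reads in any library. Across all alternatives its adjusted p ranged from 5.6e-05 to 0.463.

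Serpinh1, the chaperone of procollagen, had 107.6, 72.6 and 230.2 normalized counts at 11 weeks, against 34.8, 24.9 and 35.0 at 8 weeks, without overlap (log2 fold change 1.93 ± 0.88 SE, limma adjusted p = 0.609). Pcolce, an enhancer of procollagen trimming, had 78.2, 119.0 and 250.2 normalized counts at 11 weeks, against 315.6, 151.0 and 107.6 at 8 weeks. It shares 112 exonic bases on the same strand with Fbxo24, which had 91.4 normalized counts in replicate 2 of 8 weeks and at most 17.1 in any other library. Lox, the founding lysyl oxidase, had 273.1, 16.1 and 155.0 normalized counts at 11 weeks, against 35.7, 227.2 and 0.9 at 8 weeks. The ages overlapped widely for Pcolce and Lox. Their values differed among libraries of the same age by more than the means of the ages did.

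The small leucine-rich proteoglycans bind fibrils and growth factors. Bgn (biglycan) had 1584.3, 685.5 and 821.2 normalized counts at 11 weeks, against 447.6, 541.7 and 633.7 at 8 weeks, without overlap (log2 fold change 0.84 ± 0.39 SE, and 0.49 without replicate 1 of 11 weeks, limma adjusted p = 0.609). Dcn (decorin) had 92.9, 155.2 and 445.9 normalized counts at 11 weeks, against 84.7, 209.2 and 216.1 at 8 weeks. Lum (lumican) had 102.1, 68.5 and 330.8 normalized counts at 11 weeks, against 43.7, 72.0 and 72.6 at 8 weeks. For Dcn and Lum the highest value was in replicate 3 of 11 weeks, and both overlapped between the ages.

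The elastic fibre proteins had the highest median log2 fold change of the 10 role groups, 2.60 over 5 genes, all of them positive. This median is the value of Fbln1, which was sparse, with 4.6, 6.0 and 19.9 normalized counts at 11 weeks, against 2.7, 0 and 0 at 8 weeks. Fbln1 passed the filter through the 11-week libraries only, so it had to be higher there. Their sums were 959.1, 909.2 and 1293.4 normalized counts at 11 weeks, against 225.7, 192.6 and 70.9 at 8 weeks, a ratio of means of 6.46. Fbn1 (fibrillin-1), the backbone of microfibrils, had 757.7, 517.1 and 364.4 normalized counts at 11 weeks, against 88.3, 159.3 and 28.2 at 8 weeks (log2 fold change 2.81 ± 0.67 SE, limma adjusted p = 0.193). All 11-week libraries of Fbn1 lay above those of 8 weeks. Fbn1 shares 2442 exonic bases with Gm9913 on the opposite strand, to which the deposited table assigned no read.

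Fbln5, a fibulin needed for elastic fibre assembly, had 168.3, 263.1 and 345.3 normalized counts at 11 weeks, against 115.0, 29.1 and 34.2 at 8 weeks, without overlap. Fbln2, a fibulin of basement membranes and elastic fibres, had 11.0, 122.0 and 512.1 normalized counts at 11 weeks, against 15.2, 1.4 and 8.5 at 8 weeks. The ages overlapped for Fbln2 through replicate 1 of 11 weeks. Eln, elastin itself, was sparse, with at most 51.7 normalized counts in a library.

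The matricellular proteins modulate how cells meet the matrix rather than building it. Sparc, a collagen-binding glycoprotein, had 1376.5, 2175.4 and 3928.1 normalized counts at 11 weeks, against 663.4, 1288.4 and 622.6 at 8 weeks, without overlap (log2 fold change 1.49 ± 0.39 SE, limma adjusted p = 0.255). Its relative Sparcl1 had 302.5, 280.2 and 252.9 normalized counts at 11 weeks, against 47.3, 61.0 and 0 at 8 weeks (log2 fold change 4.27 ± 1.28 SE, limma adjusted p = 0.329). All 11-week values of Sparcl1 lay close together and above those of 8 weeks, but the log2 fold change was 2.35 without replicate 3 of 8 weeks, the library at 0, and 2.96 in DESeq2. Tnc (tenascin-C), a matrix protein of wounds and tumours, had 438.6, 167.3 and 338.1 normalized counts at 11 weeks, against 36.6, 0 and 93.1 at 8 weeks (log2 fold change 4.26 ± 1.32 SE, limma adjusted p = 0.356). Without replicate 2 of 8 weeks, where it had no reads, the log2 fold change of Tnc was 2.30, and it was 2.86 in DESeq2.

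Postn (periostin) had 829.4, 325.6 and 972.5 normalized counts at 11 weeks, against 383.4, 602.6 and 110.2 at 8 weeks, and the ages overlapped. Mgp (matrix Gla protein), an inhibitor of calcification, had 133.3, 142.1 and 394.3 normalized counts at 11 weeks, against 77.6, 142.7 and 305.8 at 8 weeks, with overlap. Its log2 fold change was 0.38 ± 0.69 SE.

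**Figure D4:**
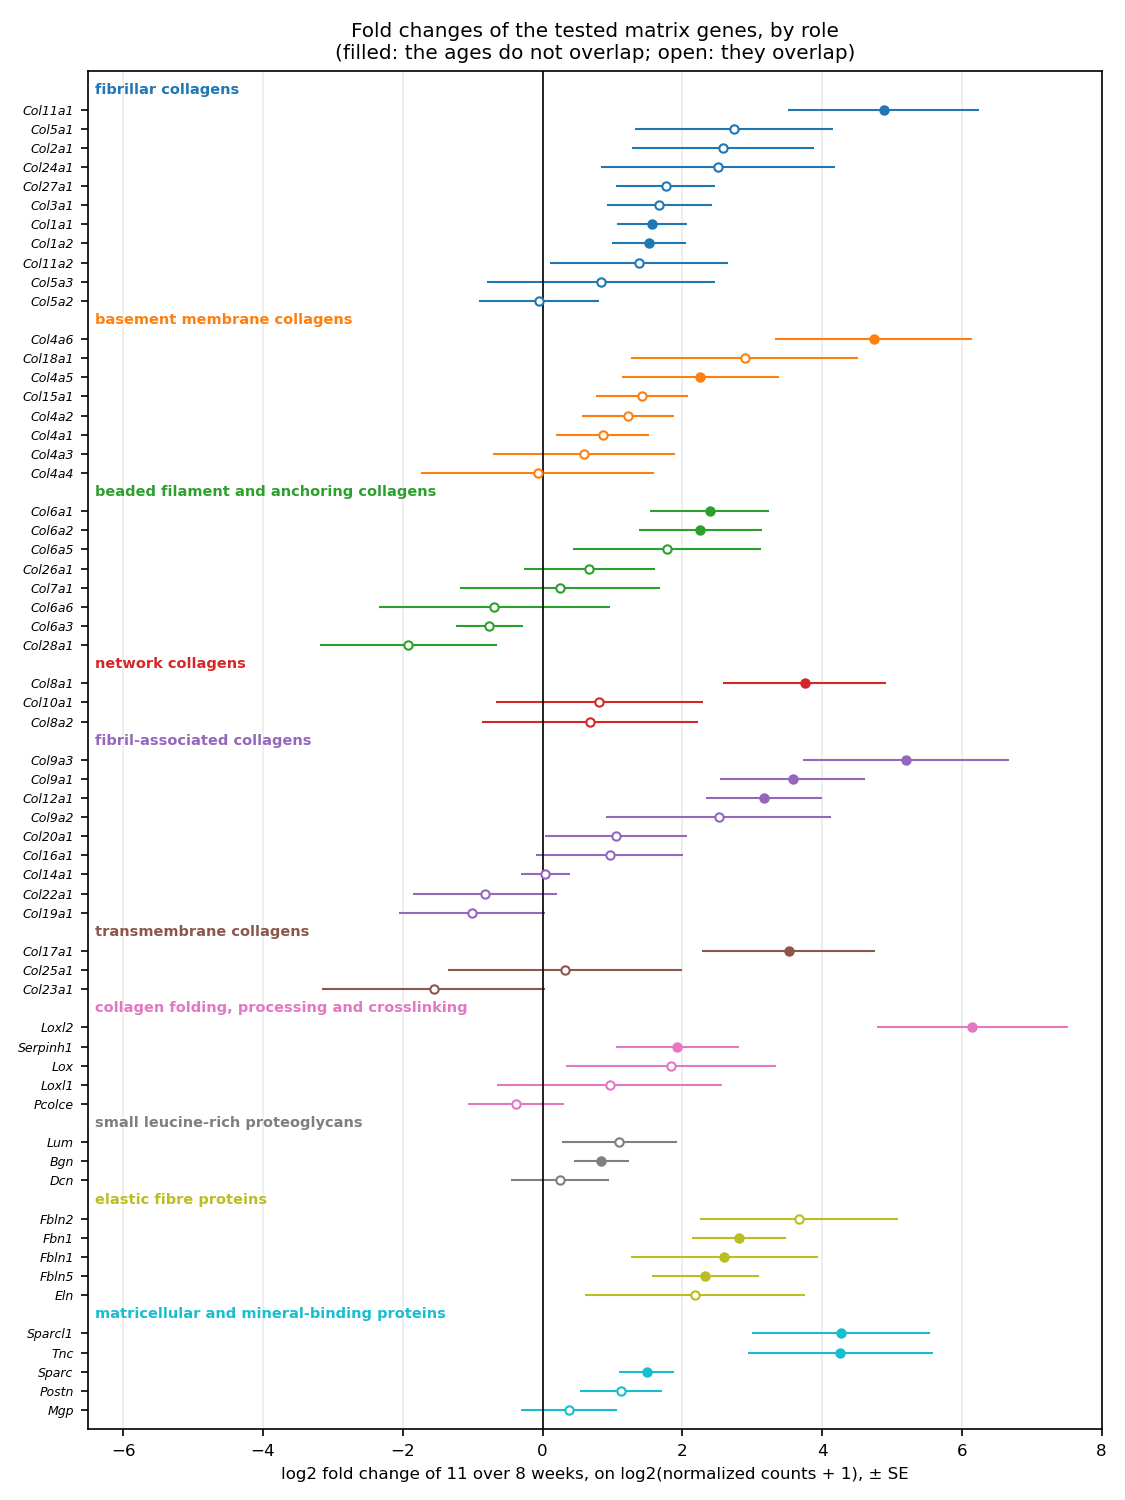
The log2 fold change of 11 over 8 weeks with its SE (horizontal axis, on log2(normalized counts + 1)) for the 60 tested matrix genes, grouped by role down the page. Filled points mark the 21 genes whose ages do not overlap, and all of them lie to the right of 0. The elastic fibre proteins have the highest median, 2.60, which is the value of the sparse Fbln1, and the transmembrane collagens the lowest, 0.32.

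Per kilobase of exonic length, Sparc had the highest level at 11 weeks, with 658 normalized counts per kilobase, against 227 at 8 weeks. Col14a1 came next at 11 weeks with 267, against 239 at 8 weeks, followed by Mgp with 188 against 148 and Bgn with 169 against 88.7. Sparcl1 had 94.8 and Col1a1 93.6 normalized counts per kilobase at 11 weeks, against 12.3 and 30.8 at 8 weeks. At 8 weeks Col14a1 and Sparc overlapped, with 201 to 271 for Col14a1 and 164 to 340 for Sparc. Col6a3 had 82.7 normalized counts per kilobase at 11 weeks, against 140 at 8 weeks. At 11 weeks all 3 libraries of Sparc lay above those of Col14a1, if only just (lowest Sparc 363, highest Col14a1 352), while Col14a1, Mgp and Bgn overlapped with each other.

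Markers of several other cell types that a macrophage sort could hold also had higher summed levels at 11 weeks. The 12 luminal epithelial and tumour cell markers summed to 50657, 26204 and 46968 normalized counts at 11 weeks, against 9253, 10446 and 12708 at 8 weeks, without overlap, with all 12 positive and 8 of them at an unadjusted p under 0.05. The sums did not overlap without Csn3 either, the most abundant of them. Csn3 (kappa-casein) rose, to 32482.5, 19883.5 and 27046.4 normalized counts at 11 weeks, against 5232.1, 6558.4 and 8277.1 at 8 weeks (limma adjusted p = 0.000888, and 4.32e-10 to 0.0243 over 19 alternatives). Myoepithelial markers summed to 274.0, 52.5 and 287.2 normalized counts at 11 weeks, against 41.9, 26.4 and 34.3 at 8 weeks. Without Krt5, the most abundant of them, the sums were 133.3, 44.4 and 115.9, against 41.9, 26.4 and 12.9. Of the 6 markers 5 had a positive log2 fold change, against 52.8% of all genes, and Krt14 was at -0.95. In 0 of the 6 did all 11-week libraries lie above those of 8 weeks, against 6.81% of all genes. Whether these cells contributed to the matrix RNA was not tested.

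Fibroblast markers, which mark the usual source of fibrillar collagen, summed to 22075.9, 26130.7 and 23385.5 normalized counts at 11 weeks, against 21522.4, 24071.0 and 21118.5 at 8 weeks, with overlap. Most of this was Lrp1, which macrophages also express. Without it, a choice made after the values were seen, the sums were 3442.6, 2822.8 and 2390.8 at 11 weeks, against 2050.9, 2449.4 and 2505.2 at 8 weeks, again with overlap. Of 13 tested fibroblast markers 10 had a positive log2 fold change, against 52.8% of all genes, 2 were higher at an unadjusted p under 0.05, against 4.76%, and 1 was lower, against 3.27%. Tcf21 was at 0 in all libraries.

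Thy1, a surface protein of fibroblasts and also of mouse T cells, had 144.4, 413.3 and 277.3 normalized counts at 11 weeks, against 78.5, 101.1 and 36.7 at 8 weeks. Which cells its reads came from was not tested. Dpt (dermatopontin), a matrix protein of fibroblasts, had 154.5, 47.4 and 251.1 normalized counts at 11 weeks, against 186.4, 576.3 and 373.2 at 8 weeks. Thy1 and Dpt, both of the fibroblast list, thus had opposite signs. The part of fibroblasts in the matrix result was not tested.

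Pericyte and smooth muscle markers summed to 2015.6, 2109.9 and 1585.0 normalized counts at 11 weeks, against 798.0, 1091.7 and 383.6 at 8 weeks, without overlap. Without Rgs5, the most abundant of them, the sums overlapped, with 1063.0, 664.3 and 1069.3 at 11 weeks, against 572.4, 892.2 and 264.0 at 8 weeks. Rgs5, the pericyte regulator of G protein signalling, had 952.6, 1445.6 and 515.7 normalized counts at 11 weeks, against 225.6, 199.5 and 119.6 at 8 weeks (log2 fold change 2.34 ± 0.49 SE, limma adjusted p = 0.132). Endothelial markers summed to 853.3, 892.1 and 1562.5 normalized counts at 11 weeks, against 649.0, 494.6 and 1354.5 at 8 weeks, and overlapped. Schwann cell markers, led by Sox10, summed to 868.0, 241.9 and 535.6 normalized counts at 11 weeks, against 142.6, 34.7 and 55.5 at 8 weeks, and overlapped without Sox10. The 11 markers of other leukocytes summed to 2119.5, 2822.5 and 2414.6 normalized counts at 11 weeks, against 710.6, 900.6 and 557.7 at 8 weeks, without overlap. Much of this was S100a9, with 1191.6, 1522.2 and 1051.4 at 11 weeks, against 146.2, 137.2 and 2.6 at 8 weeks. Without it the sums were 927.9, 1300.3 and 1363.2, against 564.4, 763.4 and 555.1, and S100a8 was also higher (log2 fold change 2.73). Of the 11, 8 were positive, against 52.8% of all genes, while Siglech (-1.25), Cpa3 (-2.03) and Ncr1 (-0.98) were negative. Adipocyte markers summed to 230.9, 301.4 and 758.7 normalized counts at 11 weeks, against 143.6, 397.6 and 181.9 at 8 weeks, and overlapped. The part of each of these cell types in the matrix result was not tested.

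**Figure D5:**
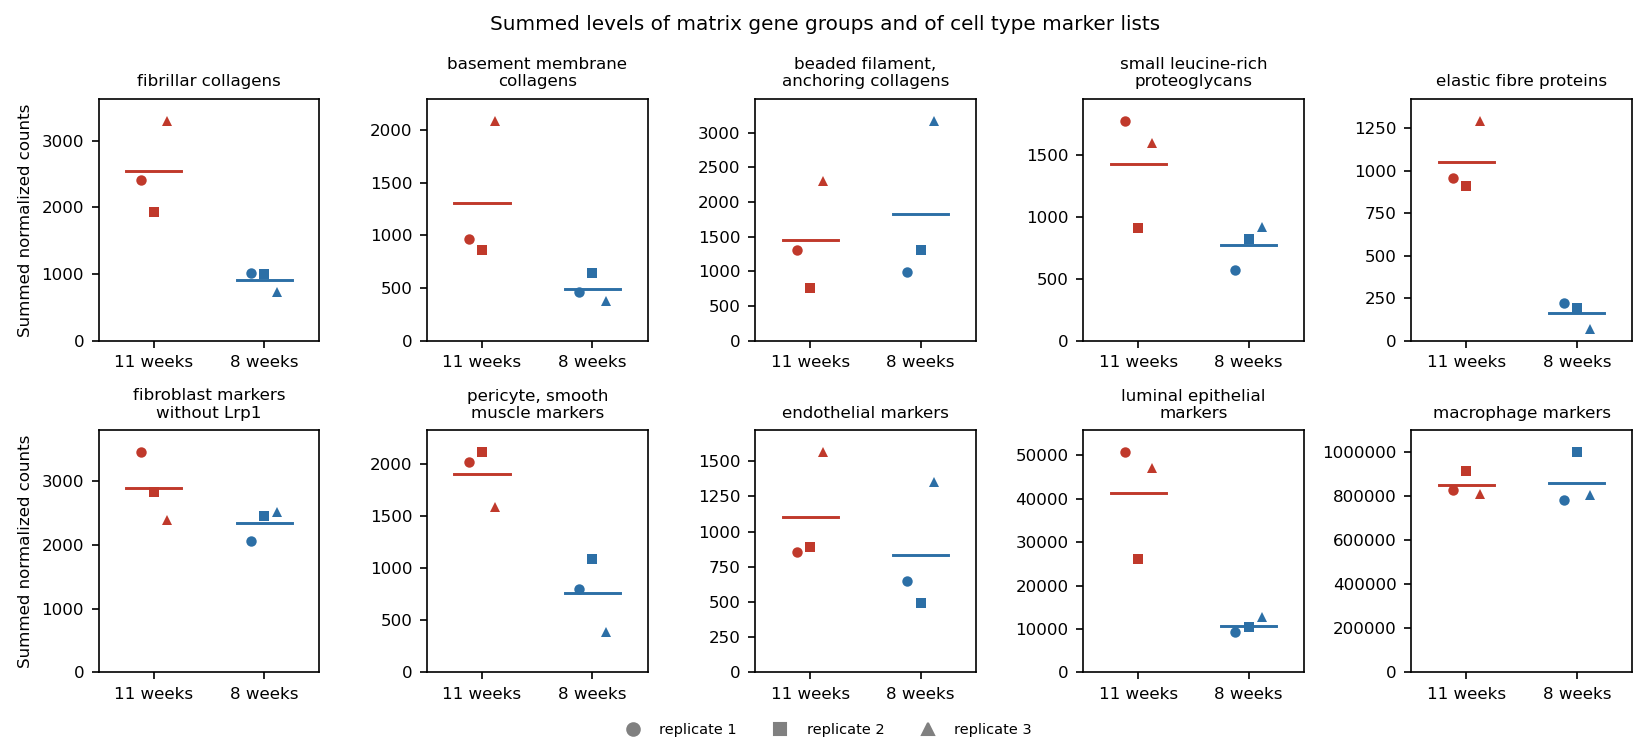
Summed normalized counts per library (vertical axes, each starting at 0) of 5 matrix gene groups in the upper row and 5 cell type marker lists in the lower row, 11 weeks on the left and 8 weeks on the right, with marker shapes for replicates and a line at the mean. Elastic fibre proteins and luminal epithelial markers separate the ages, while fibroblast markers without Lrp1 and macrophage markers overlap.

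The genes around the collagens in their pathway are given beside the same shares over all genes tested, 52.8% positive, 4.76% higher and 3.27% lower at an unadjusted p under 0.05. Of 23 enzymes and chaperones that modify collagen chains, 15 had a positive log2 fold change, 4 were higher and 1 was lower at an unadjusted p under 0.05, and the median was 0.25. P4hb, a subunit of prolyl 4-hydroxylase, had 13726.9, 19913.7 and 15360.8 normalized counts at 11 weeks, against 11708.1, 15157.4 and 10344.0 at 8 weeks, and Adamts14, a procollagen trimming protease, had 85.5, 24.2 and 33.5 against 2.7, 0 and 0. Laminins and other basement membrane proteins had a median of 0.74 over 15 genes, 2 of them higher at that threshold, with Lamc1, the most abundant, at a log2 fold change of -0.03.

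For collagen receptors and uptake genes the median log2 fold change was 0.29 over 10 tested genes, 3 of them higher at an unadjusted p under 0.05. Mrc1, the mannose receptor through which macrophages take up collagen fragments, had 106930, 111150 and 100949 normalized counts at 11 weeks, against 90154, 79771 and 90289 at 8 weeks, without overlap (limma adjusted p = 0.515). Among 7 collagen-degrading enzymes the median was 0.21, and Mmp9, a gelatinase, was lower, with 570.1, 482.9 and 678.9 normalized counts at 11 weeks, against 1281.3, 968.4 and 1111.2 at 8 weeks (log2 fold change -0.96 ± 0.33 SE, limma adjusted p = 0.442).

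Other matrix proteins typical of fibroblasts had a median log2 fold change of 0.62 over 28 genes, 5 higher and 1 lower at an unadjusted p under 0.05. The lower one was Fn1 (fibronectin), the single gene of the matrix lists to pass the adjusted threshold, which fell to 39857.7, 38997.8 and 42539.5 normalized counts at 11 weeks, against 84663.4, 59999.3 and 86703.7 at 8 weeks. Its log2 fold change was -0.91 ± 0.15 SE (limma adjusted p = 0.0354), but it passed the threshold under 9 of 19 alternatives, with adjusted p between 0.00142 and 0.264. Fn1, which macrophages are known to make, thus had the opposite sign to most collagens and to 21 of the 28 genes of its own list. The reason was not tested.

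RefSeq promoter windows were at hand for 45 of the 62 genes, giving 52 windows of 300 bases. The GC box GGGCGG, searched on both strands like the other motifs, occurred in 61.5% of these windows and in 66.7% of the 21 windows of genes whose ages did not overlap, against 35.7% of all windows in the table. These 21 windows are not 1 for each of the 21 such genes. Col6a2, Col9a1, Fbln1, Fbln5 and Tnc gave 2 each, and Loxl2, Col1a1, Col12a1, Col9a3 and Sparcl1 had none. The CCAAT box occurred in 28.8% of the windows of matrix genes, against 37.4% of all, the TATA box TATAAA in 15.4%, against 13.6%, and the AP-1 motif TGANTCA in 1.92%, against 7.81%. The single AP-1 match was that of Col6a1. These shares are descriptions of sequence and carry no test.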

How the data were processed

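RNA-seq libraries were made from sorted macrophages with NuGEN Ovation amplification and Nextera tagmentation for low input, per the labels' protocols. STAR 2.4, DESeq2 1.6 and GRCm38 are named in the submitters' processing notes without their roles. The sources used here do not state a counting tool or an annotation. The deposited signal values are read counts scaled by the size factor of each library, to 1 decimal place, judging from the values. Whole reads, within 0.05 normalized counts, were recovered for at least 99.98% of the values in each library. The authors' deposited table also holds a log2 value and a linear fold ratio of 11 over 8 weeks, with p-values and adjusted p-values.

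The test was limma 3.58.1 (trend, robust empirical Bayes) in R 4.3.3 on log2(normalized count + 1), over the 21675 genes whose mean reached 1 normalized count at either age, with Benjamini-Hochberg adjustment over all of them and a threshold of 0.05. Fold changes are on this scale, which gives smaller values for genes low in every library and can give larger ones than a ratio of means where 1 library is near 0. On recovered reads, edgeR 4.0.16, DESeq2 1.42.0 and limma's voom were alternatives, as were other scalings, pseudocounts, filters, a replicate block and each library left out in turn. Libraries of an age differed far beyond sampling noise, with a chi-square per degree of freedom of at least 116, so none was a repeat deposit. The SE of a fold change comes from the limma fit and reflects the spread among libraries, while the floors cover counting error only.

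Members, role groups and lists were chosen with earlier results of these data known. Values per library are given for the 3 members with the highest mean in each role group, the 10 with the smallest p and any that passed the threshold. From each companion or marker list at most 3 genes are named, by highest mean, smallest p or call. Where another gene is named, it was chosen after its values were seen. Exon lengths came from GENCODE M21 on GRCm38, and promoter windows from RefSeq on GRCm38.p6. The scaling to totals without mitochondrial RNA was added after the data were seen. Figures used Python 3.11.15 and matplotlib 3.10.9. The script was tested on simulated data.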

Additional observations from a re-analysis of the deposited data

How the results depend on the processing

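Of the 11 genes called among all genes by limma, the count was 422 with DESeq2, 26 with voom, 4 with library totals and 45 with the replicate block, and 3 to 16 without each library in turn. The filter was applied again to the remaining libraries in that last range. With the genes of all 6 libraries kept, it was 0 to 8, and the choice between them was made after both had been seen. The count of matrix genes called (0) was 12 with DESeq2 and 1 with voom, and 0 without each library under either filter. The count higher at an unadjusted p under 0.05 (23) was 16 to 24 without each library, lowest without replicate 3 of 11 weeks, and the count lower (0) was 1 with the replicate block and 0 to 1 without each library. Positive fold changes numbered 45 to 52 and their median was 1.30 to 1.78 without each library. Genes whose ages did not overlap numbered 21 to 28, and leaving out a library can only add to them among genes that still pass the filter.

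The differences in the ratios of Col6a3 ranged from -3.76 to -2.50 against Col6a1 and from -3.51 to -2.26 against Col6a2 without each library. The count of companion and marker genes called (2) was 19 with DESeq2, 7 with the replicate block, 1 with edgeR, library totals, upper-quartile scaling, a pseudocount of 4 and no robust estimation, and 1 to 3 without each library. The log2 fold change of Col14a1 was -0.05 with library totals. Among the matrix genes whose values are given by the naming rule, signs turned for 9 when a library was left out, with ranges of -0.22 to 0.49 for Col14a1, -0.50 to 1.92 for Col10a1, -1.08 to 1.76 for Col8a2, -0.02 to 3.43 for Lox, -3.10 to 0.07 for Col23a1, -0.83 to 0.06 for Pcolce, -0.38 to 0.75 for Dcn, -0.13 to 0.89 for Mgp and -0.88 to 1.67 for Col25a1. Col7a1, outside that rule, ranged from -0.92 to 1.41 over all alternatives, and Col5a2 from -0.38 to 0.18. The cause of these shifts was not tested.

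No pairing by replicate number was seen, as deviations of same-numbered libraries correlated at -0.03, 0 and -0.025 across 16775 genes. The labels state no pairing, and whether same-numbered libraries shared a batch was not tested. The median log2 fold change of all genes was 0.052, and -0.032 with library totals and 0.099 with upper-quartile scaling. Reads were present in all 6 libraries for 35 of the 60 tested matrix genes.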
